A study of Mus musculus with 2 samples.

Results

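The genes of DNA replication and mitosis on this array were 116 genes with 188 probes, out of 16709 genes, chosen by symbol. The choice was made with earlier results of these data known. They are the origin recognition, Mcm and Gins genes, the A-, B-, D- and E-type cyclins, the cyclin-dependent kinases and their inhibitors, the E2F factors, the Aurora kinases, the centromere proteins and the numbered kinesins. Single genes of S phase and mitosis named by the rule, among them Pcna, Tyms, Top2a, Prc1 and Cdc20, complete the set, and Mki67 was not analysed here. The prefixes also took in 9 genes with other functions, such as Aurkaip1 and Mcm3ap, and 20 kinesins mainly of transport, which are given apart. Total RNA was taken from the glandular stomach, the acid- and mucus-producing part of the organ, of female AGR2 null and AGR2 wild-type mice aged 26 weeks. Agr2 encodes an endoplasmic reticulum protein of the disulfide isomerase family that mucus-secreting cells use. RNA was biotin-labelled and hybridized to an Illumina MouseRef-8 v2 bead array, 1 array for each genotype. The strain, how the null allele was made and whether an array held RNA of 1 mouse or a pool are not given in the sources used here.

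With 1 array per genotype no difference has a replicate check, so no p-value is given and each value is a description of these arrays. Agr2 went against its label, with a signal of 3406 on the array labelled null and 972 on the array labelled wild-type. Where its probe lies relative to the deleted part is not given, and a probe outside it checks nothing. Xist, which coats the silenced X chromosome of female cells, stood at 1774 on the array labelled null and 186 on the array labelled wild-type, although both samples are labelled female. Of the Y-linked genes, Eif2s3y read 134 and 2096 and Kdm5d 119 and 303 on the arrays labelled null and wild-type, while Ddx3y (2138 and 5332) and Uty (245 and 210) were detected on both. Arrays are therefore named by their labels, and every difference is the array labelled null minus the array labelled wild-type. With 1 array each, genotype cannot be told apart from other differences between the samples, those in Xist and Y-linked signals included. Mean probe signal was 925 and 811, and 8274 and 8572 genes were detected on the arrays labelled null and wild-type. A gene was detected on an array if under 1% of 1314 olfactory and vomeronasal receptor probes, taken as background, were at least as bright. Those probes had a 99th percentile of 227 on the array labelled null and of 200.4 on the array labelled wild-type. A gene called below background did not pass this limit and can still be brighter than most of these probes.

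Signals of cell type markers also differed between the arrays. Among cell type markers, detected smooth muscle genes were at least 2-fold lower in 13 of 13 cases on the array labelled null, with summed signals of 33385 on that array and 138251 on the array labelled wild-type. Squamous epithelial genes, which mark the forestomach, were at least 2-fold lower in 13 of 14 cases (summed signals of 6867 and 173154), and pancreatic acinar genes in 19 of 21 (32440 and 140668). Parietal cell genes, which define the glandular stomach, were lower in 10 of 13 cases (40802 and 195039). Neutrophil genes were at least 2-fold higher in 7 of 8 cases (34447 and 4267) and plasma cell genes in 3 of 4 (4280 and 1883). Gastric stem and progenitor genes were higher in 3 of 7 cases and lower in 1 (10065 and 5261), chief cell genes higher in 1 of 8 and lower in 3 (97391 and 184417), and macrophage and dendritic cell genes higher in 1 of 9 and lower in 4 (8516 and 8614). Of 11 T and B lymphocyte markers 1 was detected. These counts stand beside 13.0% higher and 17.1% lower of all 9271 genes detected on at least 1 array. They use the fitted value of genes detected on 1 array only. At the bounds explained below, 11 of 13 smooth muscle genes were at least 2-fold lower and 6 of 8 neutrophil genes higher. The other marker counts were the same at the bounds. No marker was listed at 0, since every probe has a background signal. On the array labelled null 6 of 17 squamous and 5 of 21 acinar markers were above background, against 13 and 21 on the array labelled wild-type. The part of these differences in the results that follow was not tested. In such bulk RNA, fewer cells of a type and less RNA per cell cannot be told apart.

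A dividing cell first licenses its replication origins in G1, when the origin recognition complex loads the Mcm helicase. D- and E-type cyclins with their kinases then release the E2F factors, which switch on the genes of DNA synthesis. A later wave of genes for G2 and mitosis is driven through promoter elements named CHR and the CCAAT box, and the products condense chromosomes, build the spindle and, through Cdc20 and Ube2c, mark cyclins for destruction. The Cip/Kip and Ink4 inhibitors hold the kinases back. In the stomach gland, division is normally concentrated in the isthmus, below the surface pits.

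Of the 116 genes, 64 were detected on both arrays and 36 on neither, while 11 were detected only on the array labelled null and 5 only on the array labelled wild-type. Of all 9271 genes detected on at least 1 array, 699 were detected only on the array labelled null. A further 997 were detected only on the array labelled wild-type. Among the 64, those at least 2-fold apart were 20 higher and 2 lower genes on the array labelled null. Over all 7575 genes detected on both arrays, 10.5% were at least 2-fold higher and 10.7% lower. The median log2 difference was 0.47 for the 64 members and 0.03 for all genes. Without any detection filter 29 of the 116 members were at least 2-fold higher and 5 lower, beside 7.80% and 10.3% of all genes. The 53 detected genes with a role in a phase of the cycle accounted for most of the higher members. Of the 43 of these detected on both arrays, 18 were at least 2-fold higher and none lower (median 0.76), and 36 lay above 0. Of all genes detected on both arrays, 51.9% lay above 0. The 5 detected inhibitors had 2 lower, none higher and a median of -0.97.

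The detection limit was set on each array separately, and a gene past it on only 1 array is given with a bound: the bright value against the lowest value detected on the other array, or against the dim probe's own value where that is higher. Bounds are taken on the background-corrected, normalized scale and hold for that scale alone. The printed signals still contain background, so their ratio can be smaller than the bound. Over the 8 processing settings the fitted fold of such genes reached down to 1.94 for Cdk3, 1.45 for Kif2a, 1.46 for Kif21b, 1.45 for Ccna2, 1.41 for Rrm2, 1.40 for Cenpk and 1.96 (lower) for Kif1a. Counting all 80 genes detected on at least 1 array, 27 were at least 2-fold higher and 3 lower, beside 13.0% and 17.1% of 9271 genes. At their bounds these counts were 23 and 2, beside 10.6% and 13.5% of all genes. The brightest member signal, 8553, was far under the highest signal of the same array, 57194.

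**Figure D1:**
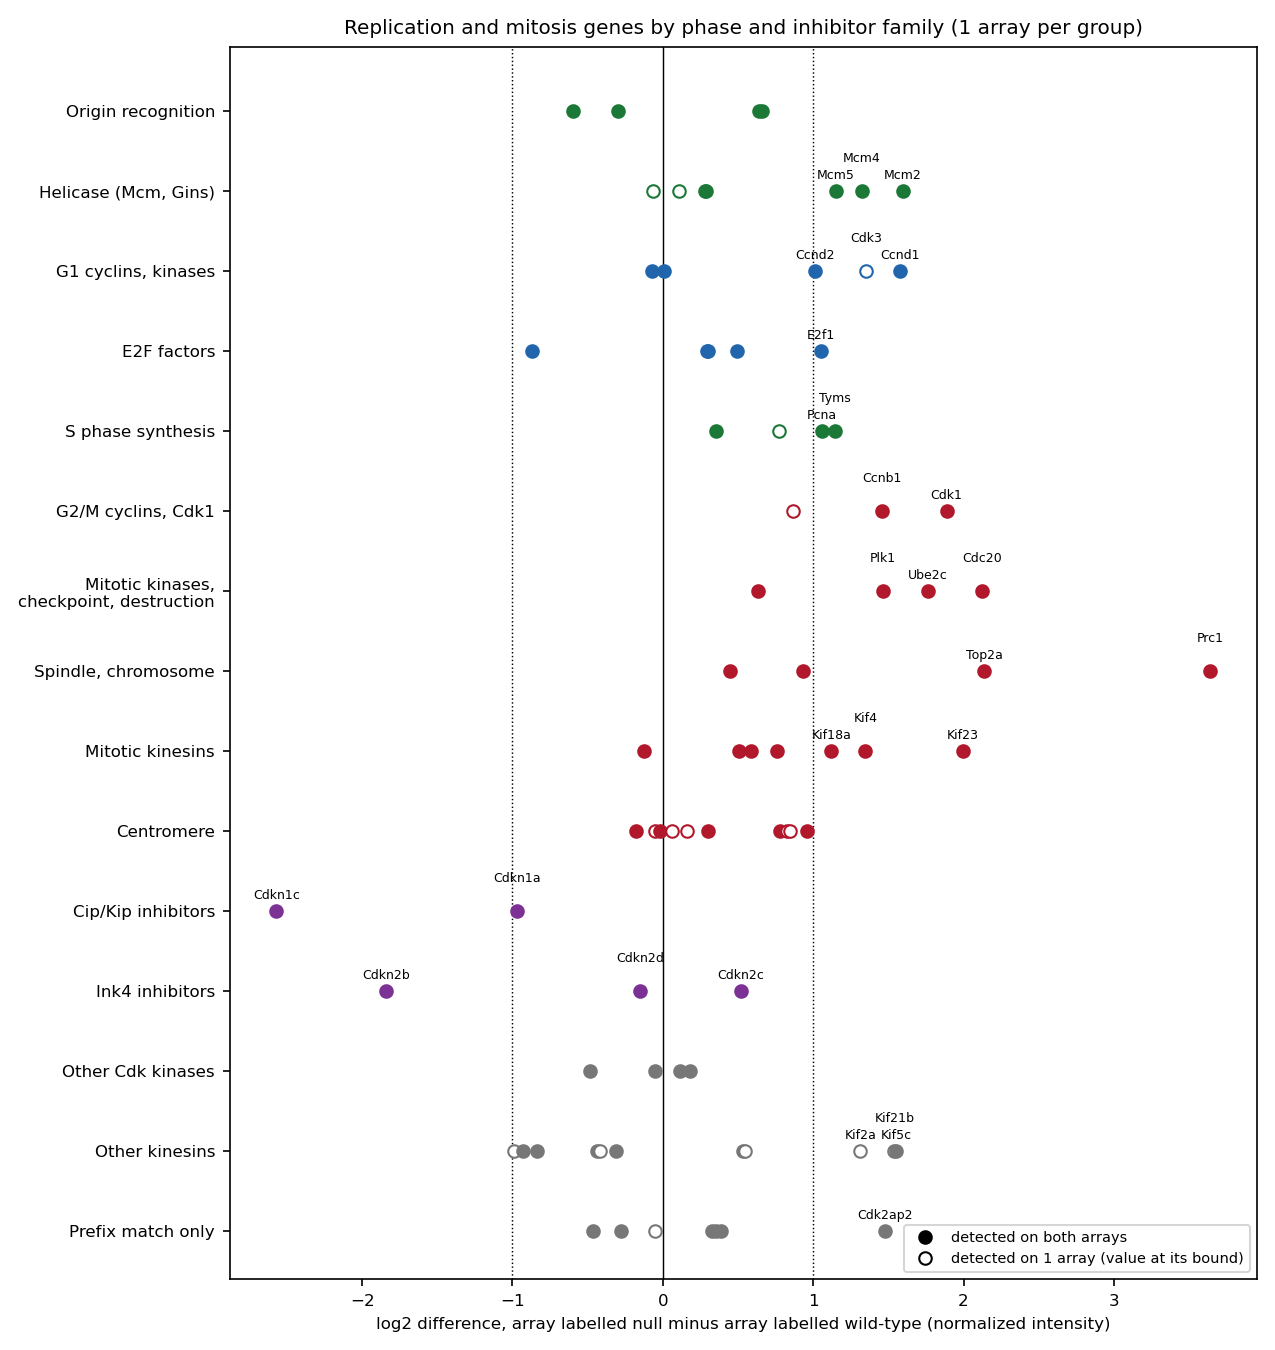
Log2 difference in normalized intensity, array labelled null minus array labelled wild-type, for each detected member (points), by phase and inhibitor family (rows). Filled points were detected on both arrays and open points on 1 array, shown at their bound, and dotted lines mark 2-fold. Mitotic genes reach furthest right, Cdkn1c and Cdkn2b lie furthest left, and origin and centromere genes lie within 2-fold.

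None of the 4 detected origin recognition subunits was 2-fold apart. Orc5 had signals of 1013 on the array labelled null and 559.8 on the array labelled wild-type (1.58-fold higher), and Orc6 774 and 444 (1.56-fold higher). Orc3, with 396 and 441, was 1.51-fold lower, and Orc4 1.23-fold lower. Orc4 did not keep its sign over the 8 processing settings (log2 difference from -0.42 to 0.10), and its other probe was below background on both arrays. These subunits thus differed in both directions, each within 2-fold.

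The Mcm genes encode the ring of the replicative helicase. Mcm2 read 629.8 on the array labelled null and 247 on the array labelled wild-type, a 3.02-fold higher normalized value. The latter signal was close to background, and over the 8 processing settings the fold reached down to 2.13. Mcm4 read 2281 and 805 (2.50-fold higher), and Mcm5 1429 and 590.1 (2.22-fold higher). Mcm3 was detected on the array labelled null alone (237 against 124), little above background, and its bound was 1.08-fold. Mcm6 was within 2-fold by its brightest probe (2445 and 1695, 1.22-fold higher), while its other detected probes gave 1.76-fold and 1.91-fold. Mcm7, Mcm8 and Mcm9 were below background on both arrays. Of the Gins genes, whose products join the ring to make the active helicase, Gins4 read 1609.8 and 1119 (1.22-fold higher), and Gins3 (223 and 204) passed the detection limit on the array labelled wild-type alone, by little. Among the 5 helicase genes detected on both arrays 3 were at least 2-fold higher and all 5 lay above 0. Of all genes detected on both arrays, 10.5% were at least 2-fold higher and 51.9% lay above 0.

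D-type cyclins, which couple growth signals to the G1 kinases, did not share a size of difference. Ccnd1 had the brightest member signal on the array labelled null, with 8553 there and 2495 on the array labelled wild-type. Its 3 probes gave 2.99-fold, 2.86-fold and 2.48-fold higher values. Ccnd2 read 4644 and 1977 (2.02-fold higher), which is just past the 2-fold mark. Ccnd3, with 2992 and 2591, differed by -0.07 on the log2 scale by its brightest probe, and its 2 dim probes were each detected on 1 array, a different one each. Cdk2, the partner of cyclins E and A, depended on the probe: its brightest read 2878 and 2395 (log2 difference 0.01), a further probe read 790 and 380.2 (1.98-fold higher), and the last detected one was above background on the array labelled null alone (368 against 195). Cdk3 was detected on the array labelled null alone (399 against 177, bound 2.56-fold higher). Ccne1, Ccne2 and Cdk6 were below background on both arrays.

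Among the E2F factors, E2f1, an activator of S phase genes, read 427 on the array labelled null and 231 on the array labelled wild-type (2.07-fold higher). The latter signal was close to background, and over the 8 processing settings the fold reached down to 1.56. E2f4, which acts mainly in repressor complexes of resting cells, was the member of this family on the other side, at 518 and 689 (1.83-fold lower). E2f6, the brightest of the family, read 1440.3 and 989 (1.23-fold higher). E2f2 and E2f5 were 1.23-fold and 1.41-fold higher, and E2f3 and E2f7 were below background on both arrays. In the synthesis group, Pcna, the sliding clamp of DNA polymerases, read 1491 and 647 (2.08-fold higher). Tyms, the thymidylate synthase, read 907 and 391 (2.21-fold higher), and 3 of its other probes were detected on the array labelled null alone. For ribonucleotide reductase, the large subunit gene Rrm1 read 855 and 568 (1.28-fold higher). The small subunit gene Rrm2, whose product is limiting in S phase, was detected on the array labelled null alone (305 against 189, bound 1.71-fold higher).

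Genes of G2 and mitosis held the largest upward differences of the set. Prc1, which bundles the microtubules of the spindle midzone, read 2399 on the array labelled null and 262 on the array labelled wild-type, 12.5-fold higher by its single probe. Cdc20, the activator of the anaphase-promoting complex, read 1778 and 419.6 by its brightest probe (4.36-fold higher). Of its other probes, 2 gave 1.72-fold and 1.79-fold higher values and 1 was detected on the array labelled null alone. Top2a, which untangles sister chromatids, read 919 and 257 (4.40-fold higher). The signals of Prc1 and Top2a on the array labelled wild-type were close to background there (99th percentile 200.4), and the size of these folds depends on the background correction. Without it Prc1 was 7.71-fold and Top2a 2.96-fold higher.

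Cdk1, the mitotic kinase listed under its older name Cdc2a, read 953 on the array labelled null and 291 on the array labelled wild-type (3.70-fold higher) by the only 1 of its 3 probes above background. Its cyclin Ccnb1 read 809 and 312 (2.75-fold higher), and a further probe gave 819 and 294. RefSeq lists pseudogenes of Ccnb1, Ccnd3, Pcna and Tyms, and whether these probes also bind their transcripts was not tested. Ccna2, the cyclin of S phase and early mitosis, was detected on the array labelled null alone (318 against 190.1, bound 1.82-fold higher), and Ccna1, Ccnb2 and Ccnb3 were below background on both arrays. Ube2c, the ubiquitin-conjugating enzyme of mitotic exit, read 892 and 293 (3.40-fold higher), and the kinase Plk1 856 and 324 (2.76-fold higher). Aurora kinase A (Aurka) was within 2-fold at 454 and 283 (1.55-fold higher), as were the spindle proteins Tpx2 (471 and 259, 1.91-fold) and Nusap1 (1223 and 758, 1.37-fold). The checkpoint genes Bub1 and Bub1b were below background on both arrays, Bub1b narrowly so on the array labelled null (221 against a 99th percentile of 227).

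**Figure D2:**
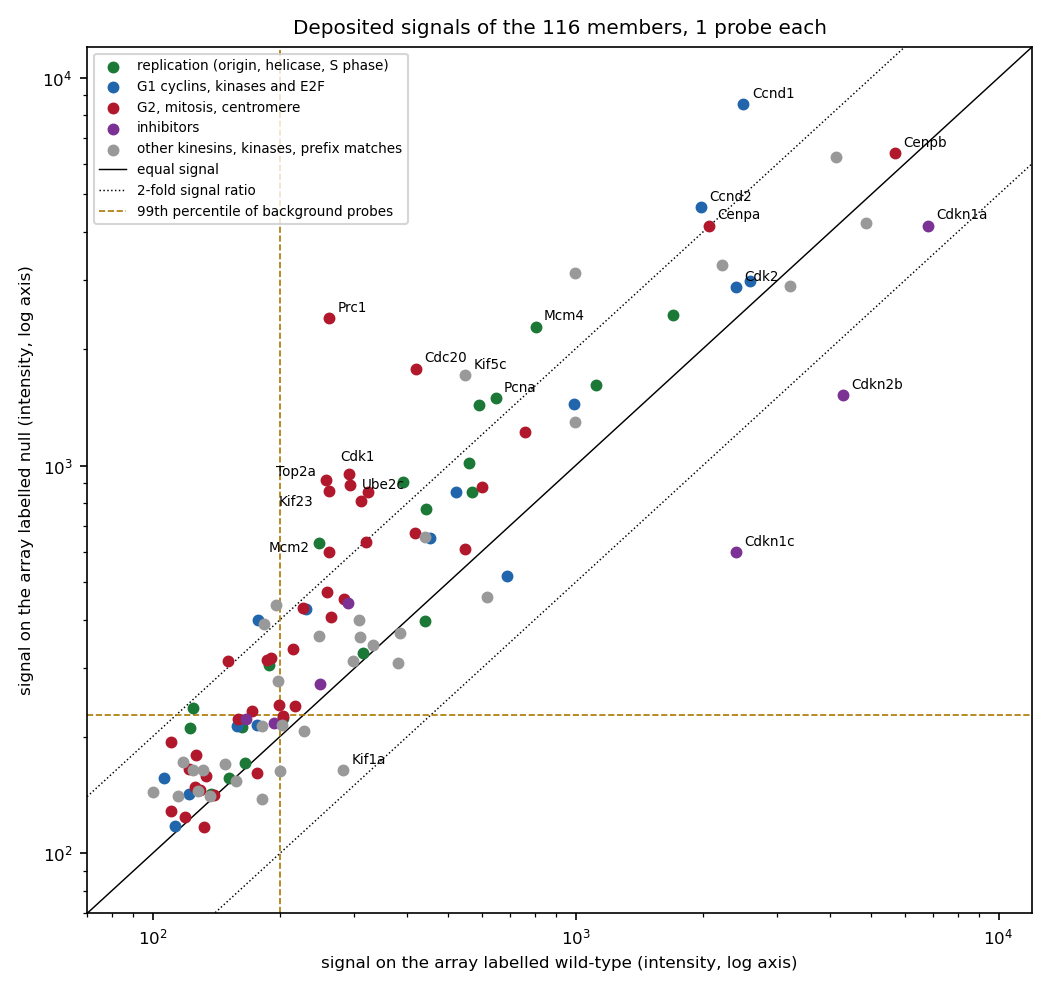
Deposited signal of each of the 116 members by its brightest probe, on the array labelled null (vertical, log axis) and the array labelled wild-type (horizontal, log axis). The solid line marks equal signal, dotted lines a 2-fold ratio of signals and dashed lines the level that 99% of background probes stay under (227 and 200.4). Prc1, Cdc20 and Top2a stand furthest above the line of equal signal, and Cdkn1c, Cdkn2b and Cdkn1a stand below it.

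Among 7 mitotic kinesins detected on both arrays, 3 were at least 2-fold higher and none lower (median 0.76). Of all genes detected on both arrays, 10.5% were higher and 10.7% lower by this measure. Kif23, a motor of the spindle midzone, read 859 on the array labelled null and 261 on the array labelled wild-type (3.98-fold higher). Kif4, a chromosome motor that also binds Prc1, read 598 and 262 (2.54-fold higher), with its other 2 probes detected on the array labelled null alone. Kif18a, which damps chromosome movement, read 430.3 and 227 (2.17-fold higher). The signals of Kif23, Kif4 and Kif18a on the array labelled wild-type were close to background. Over the 8 processing settings their folds reached down to 2.74, 1.90 and 1.61. Kif15, Kif2c and Kif22 were 1.69-fold, 1.5-fold and 1.42-fold higher, Kif11 was 1.09-fold lower, and Kif14 was below background on both arrays. The 6 other kinesins detected on both arrays had a median of -0.37, with 1 at least 2-fold higher (16.7%, not far from the 10.5% of all genes). That one was Kif5c, a heavy chain of conventional kinesin, at 1711 and 548 (2.93-fold higher). Kif2a, a microtubule depolymerase that also works at spindle poles, was detected on the array labelled null alone (391 against 184, bound 2.49-fold higher), as was Kif21b (437.5 against 196, bound 2.91-fold higher). The brightest, Kif1b, read 2897 and 3221 (1.35-fold lower). Kif3a, a motor of cilia, read 457 and 619 (1.91-fold lower) by its brightest probe and 321 and 319 (1.30-fold lower) by its other probe. Kif1a, a motor of nerve axons, was detected on the array labelled wild-type alone (164 on the array labelled null, 283 on the array labelled wild-type, bound 1.98-fold lower).

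Centromere proteins detected on both arrays had a lower median difference than the other mitotic groups. None of these 5 was 2-fold apart (median 0.30), beside 10.5% higher and 10.7% lower of all genes detected on both arrays. With so few genes, a count of none is not far from these shares. Cenpa, the histone variant that marks centromeres, read 4157 on the array labelled null and 2067 on the array labelled wild-type (1.71-fold higher), and Cenpq of the inner kinetochore read 634 and 320.05 (1.95-fold higher). Cenpb, which binds satellite DNA, read 6387 and 5680.3 (log2 difference -0.02). The inner kinetochore genes Cenph and Cenpk were detected on the array labelled null alone, at 313 against 151 and 315 against 186, with bounds of 1.78-fold and 1.79-fold higher. Cenpe, Cenpi, Cenpn, Cenpo and Cenpc1 were below background on both arrays.

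Because the genes of G2 and mitosis share promoter elements in textbook accounts, the promoters of the members were read from RefSeq (GRCm38.p6). A window runs from 250 bases before to 50 bases after the start of a gene, and 99 of the 116 members had one. The words searched, on both strands, were TTTGAA or TTCGAA for the CHR, CCAAT for the CCAAT box, and TTCCCGC or else TTGGCGC, with TTCGCGC and then TTGCCGC, for the E2F site. Of 201 matches in members, 17 overlapped another match. Shown are the 4 mitotic genes with large upward differences that the text describes most closely (Prc1, Cdc20, Cdk1 and Top2a), an Mcm gene with E2F words (Mcm5) and an inhibitor that was lower (Cdkn2b). Capitals mark the words found.
Prc1 promoter, chr7:80294201-80294500, plus strand: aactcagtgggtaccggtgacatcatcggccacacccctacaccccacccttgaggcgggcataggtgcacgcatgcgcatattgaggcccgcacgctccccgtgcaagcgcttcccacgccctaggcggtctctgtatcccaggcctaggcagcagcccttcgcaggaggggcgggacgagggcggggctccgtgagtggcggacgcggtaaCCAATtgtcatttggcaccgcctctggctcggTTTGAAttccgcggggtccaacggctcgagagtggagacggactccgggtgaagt
Cdc20 promoter, chr4:118437294-118437593, minus strand: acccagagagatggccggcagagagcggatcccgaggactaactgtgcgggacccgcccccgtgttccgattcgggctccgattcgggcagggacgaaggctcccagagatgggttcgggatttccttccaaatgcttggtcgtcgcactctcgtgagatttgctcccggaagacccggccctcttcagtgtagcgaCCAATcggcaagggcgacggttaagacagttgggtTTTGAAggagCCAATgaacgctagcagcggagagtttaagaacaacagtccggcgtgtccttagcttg
Cdk1 promoter, chr10:69352863-69353162, minus strand: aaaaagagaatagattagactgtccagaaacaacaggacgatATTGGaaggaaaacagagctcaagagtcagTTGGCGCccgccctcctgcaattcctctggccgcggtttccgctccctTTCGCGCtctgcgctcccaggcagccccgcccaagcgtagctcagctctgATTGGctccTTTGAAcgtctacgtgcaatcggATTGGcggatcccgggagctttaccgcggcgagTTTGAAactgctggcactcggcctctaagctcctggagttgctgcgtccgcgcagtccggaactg
Top2a promoter, chr11:99024140-99024439, minus strand: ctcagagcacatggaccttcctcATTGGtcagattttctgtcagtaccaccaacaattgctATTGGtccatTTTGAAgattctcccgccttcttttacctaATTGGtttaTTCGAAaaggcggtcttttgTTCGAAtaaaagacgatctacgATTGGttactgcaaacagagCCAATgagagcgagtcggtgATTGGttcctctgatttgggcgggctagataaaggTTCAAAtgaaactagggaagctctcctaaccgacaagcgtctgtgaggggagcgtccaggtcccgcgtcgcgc
Mcm5 promoter, chr8:75109259-75109558, plus strand: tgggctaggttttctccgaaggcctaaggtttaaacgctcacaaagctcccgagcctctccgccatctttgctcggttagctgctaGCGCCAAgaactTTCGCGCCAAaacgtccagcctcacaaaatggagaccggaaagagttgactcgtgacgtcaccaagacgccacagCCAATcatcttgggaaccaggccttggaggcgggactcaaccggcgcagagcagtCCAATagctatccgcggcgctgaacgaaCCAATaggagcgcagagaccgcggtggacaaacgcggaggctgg
Cdkn2b promoter, chr4:89310983-89311282, minus strand: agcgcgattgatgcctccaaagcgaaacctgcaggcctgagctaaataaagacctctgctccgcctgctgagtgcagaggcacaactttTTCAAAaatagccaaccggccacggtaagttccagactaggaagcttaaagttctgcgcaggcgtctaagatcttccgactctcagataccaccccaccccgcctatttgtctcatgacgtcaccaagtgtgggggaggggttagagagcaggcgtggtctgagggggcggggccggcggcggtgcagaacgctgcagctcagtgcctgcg

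The Prc1 window, the first of 2 for this gene, holds a CCAAT word 37 bases before the start and a CHR word 5 bases before it. In Cdc20 the CHR word lies 18 bases before the start, with CCAAT words 53 and 8 bases before it. Cdk1 holds CHR words 71 and 15 bases before the start, 3 CCAAT words and 2 E2F words, and Top2a holds 4 CHR and 6 CCAAT words. Mcm5 has 3 E2F and 3 CCAAT words and no CHR word, and Cdkn2b has a CHR word alone.

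A CHR word was present in 21 of 38 windows of G2, mitotic and centromere members (55.3%) and in 4 of 27 windows of the G1, E2F, origin, helicase and S phase members (14.8%), beside 19.4% of all 27025 windows. The CCAAT word was present in 73.7% and 66.7% of these windows, beside 37.9% of all. E2F words ran the other way, with 31.6% and 51.9%, beside 9.69% of all. Both a CHR and a CCAAT word stood in 19 of 38 G2 and mitotic windows and in 7.7% of all windows. Within G2 and mitosis, the CHR word was found in 8 of the 10 windows of genes detected on both arrays and at least 2-fold higher, and in 7 of the 11 within 2-fold. A match describes the letters in the window and does not show a site in use.

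The inhibitors were the only group here with members detected on both arrays and at least 2-fold lower. Cdkn1c, a Cip/Kip inhibitor linked to quiescence and differentiation, read 598 on the array labelled null and 2398 on the array labelled wild-type, 5.94-fold lower by its single probe. Cdkn2b, an Ink4 inhibitor of the D-cyclin kinases and a target of transforming growth factor beta, read 1517 and 4292 (3.59-fold lower). Cdkn1a, the Cip/Kip inhibitor that p53 induces, read 4158 and 6807 by its brightest probe (1.96-fold lower), and its other probes gave 1607 and 3212 (2.53-fold lower) and 651 and 1135 (2.41-fold lower). All 3 Cdkn1a probes were thus lower, with the brightest just inside 2-fold. The Ink4 inhibitor Cdkn2c read 441 and 290.2 (1.43-fold higher), and Cdkn2d 273 and 248 (1.11-fold lower). Cdkn1b, the third Cip/Kip inhibitor, and Cdkn2a, an Ink4 gene used as a marker of senescence, were below background on both arrays by every probe. The brightest Cdkn1b probe missed the limit narrowly on the array labelled null (222 against a 99th percentile of 227). The brightest Cdkn2a probe missed it narrowly on both arrays (217 and 194, against 227 and 200.4). Smooth muscle, squamous, acinar and parietal markers were lower on the same array, as given above, and their part in the lower inhibitor signals was not tested.

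**Figure D3:**
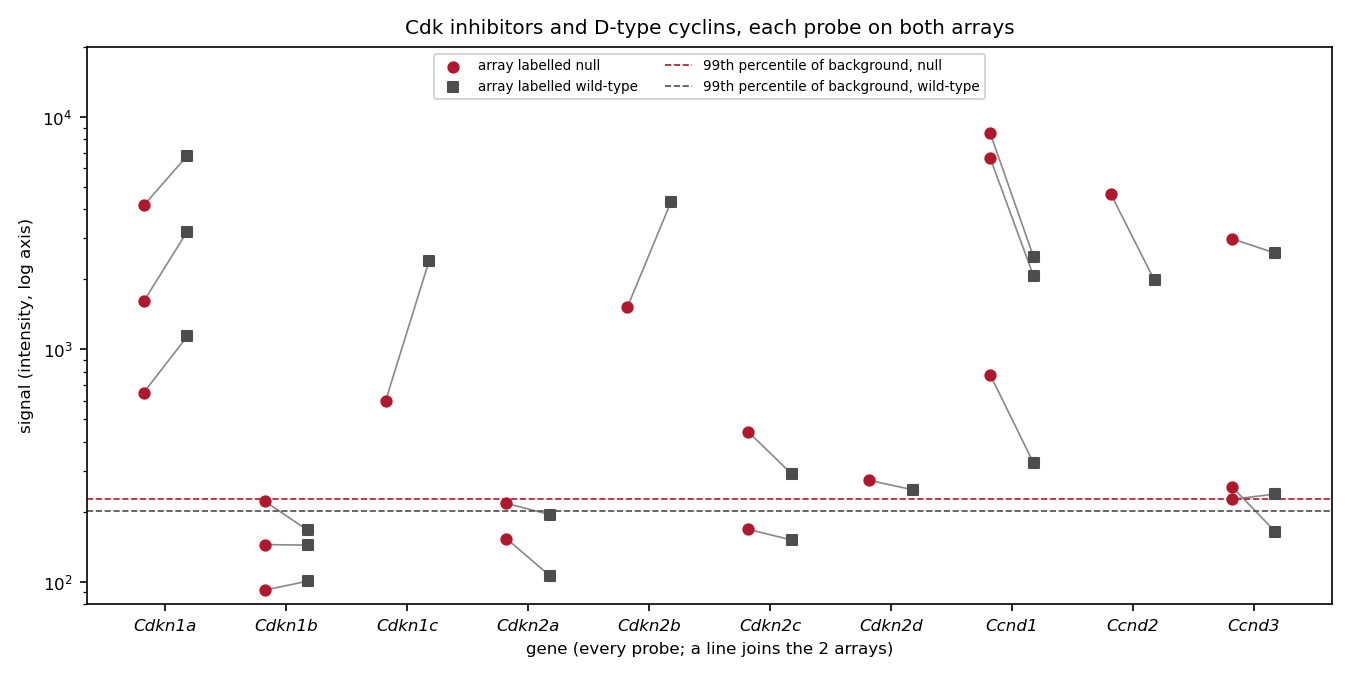
Deposited signal (vertical, log axis) of every probe of the 7 Cdk inhibitors and the 3 D-type cyclins, with the array labelled null on the left of each pair and the array labelled wild-type on the right. Dashed lines mark, for each array, the level that 99% of background probes stay under. The lines of Cdkn1a, Cdkn1c and Cdkn2b run upward to the array labelled wild-type and those of Ccnd1 and Ccnd2 downward. Points of Cdkn1b and Cdkn2a stay under the dashed line of their array.

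Other cyclin-dependent kinases lay near level. Cdk5, Cdk8, Cdk9 and Cdk10, which serve neurons or transcription, had log2 differences from -0.49 to 0.18 by their brightest probes, and Cdk7 was below background on both arrays. The 2 dimmer probes of Cdk10 were detected on the array labelled null alone.

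Genes of the same pathways outside the set were read from lists written for this comparison with earlier results of these data known. Of 26 other replication genes detected on both arrays, 4 were at least 2-fold higher and none lower, with a median of 0.35. That is 15.4% higher, beside 10.5% of all genes detected on both arrays. Fen1, which trims Okazaki fragments, read 1976 on the array labelled null and 586 on the array labelled wild-type (3.16-fold higher), Dbf4, the activator of the origin-firing kinase, 1011 and 337 (3.15-fold) and the single-strand binding subunit Rpa3 1112 and 415 (2.61-fold). Cdc45, a helicase partner, was detected on the array labelled null alone (327 against 168, bound 1.90-fold higher).

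Of 17 other mitosis genes detected on both arrays, 4 were at least 2-fold higher and 1 lower (median 0.65). That is 23.5% higher and 5.88% lower, beside 10.5% and 10.7% of all genes detected on both arrays. The checkpoint gene Mad2l1 read 1025 on the array labelled null and 236 on the array labelled wild-type (5.91-fold higher). Wee1, the kinase that holds Cdk1 inactive, was detected on the array labelled wild-type alone (220.05 for the array labelled null and 414 for the array labelled wild-type, bound 3.54-fold lower). The signals of Mad2l1 on the array labelled wild-type and of Wee1 on the array labelled null were close to background (99th percentiles 200.4 and 227). How far these folds depend on the background correction was not tested, as the processing settings were compared for members alone. The kinetochore gene Ndc80 and the cohesin protector Sgo1 were detected on the array labelled null alone, at 311 against 151 and 359 against 176, with bounds of 1.75-fold and 2.18-fold higher. The mitotic list thus had members on both sides.

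Among pocket proteins and their partners, 4 genes were detected on both arrays and 1 was at least 2-fold higher (25.0%, beside 10.5% of all genes). This was Tfdp1, the E2F dimer partner, with 1122 on the array labelled null and 261 on the array labelled wild-type (5.43-fold higher), while its relative Tfdp2 was 1.74-fold lower. The histone-binding gene Rbbp7 (1234 against 160.5, bound 10.4-fold higher) and the pocket protein gene Rbl1 (351 against 168, bound 2.12-fold higher) were detected on the array labelled null alone. The signal of Tfdp1 on the array labelled wild-type was close to background there. Dependence of the Tfdp1, Rbbp7 and Rbl1 folds on the background correction was not tested. Targets of p53, which share their activator with Cdkn1a, were mixed. Of 17 detected on both arrays 1 was at least 2-fold higher and 2 lower, with a median of 0.09. That is 5.88% higher and 11.8% lower, beside 10.5% and 10.7% of all genes detected on both arrays. Sesn1 was 3.62-fold and Perp 2.96-fold lower, whereas Gadd45a was 2.38-fold higher, and Pmaip1 was detected on the array labelled null alone (333 against 186, bound 1.96-fold higher).

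**Figure D4:**
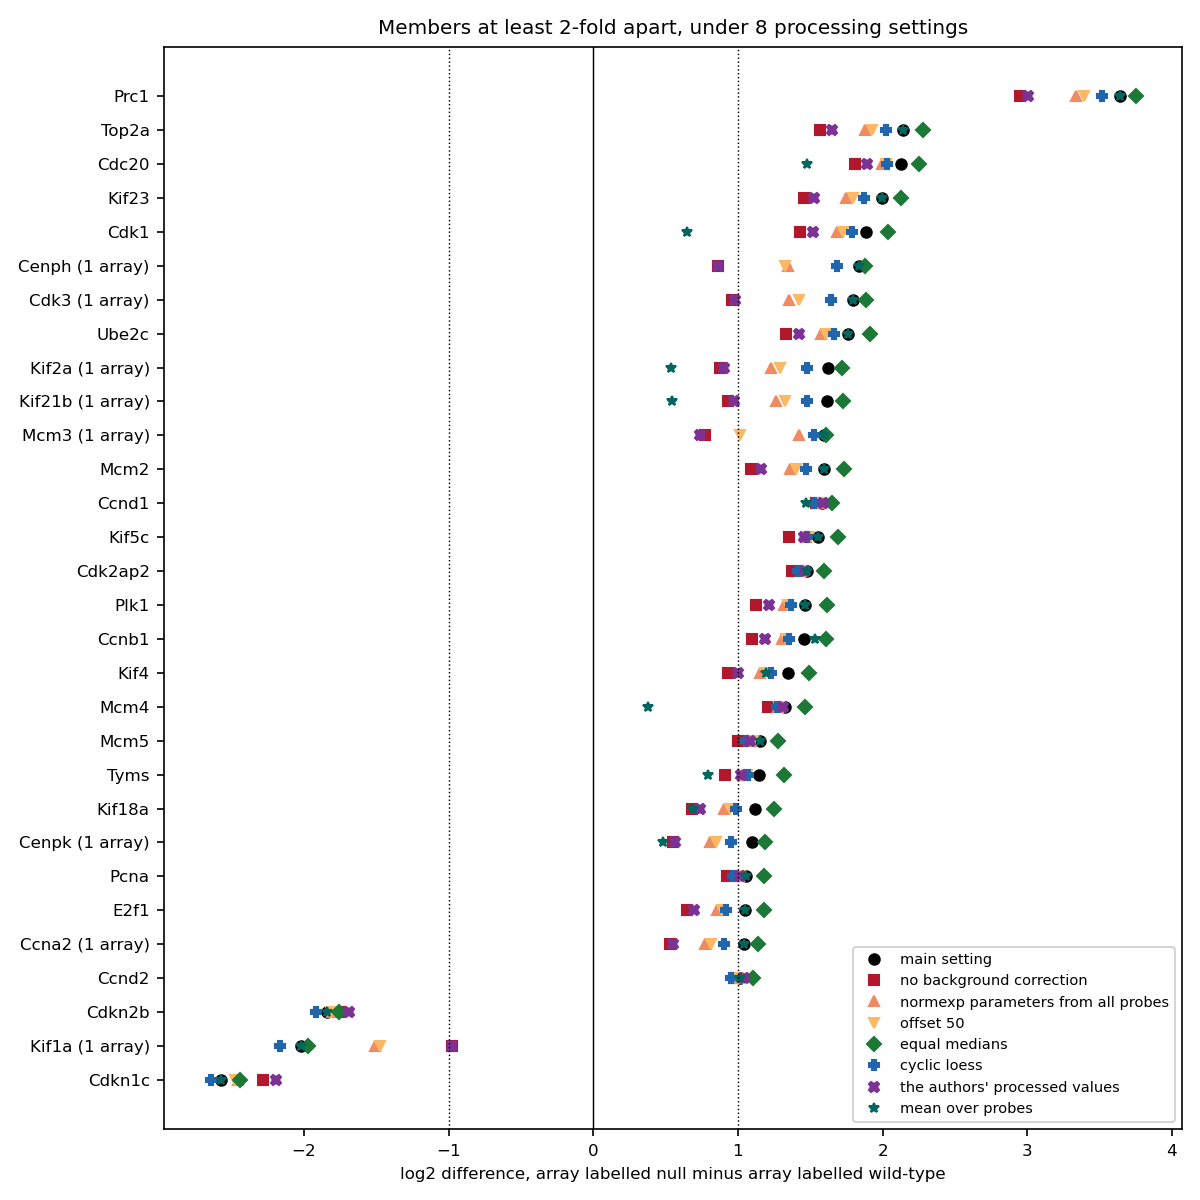
Log2 difference, array labelled null minus array labelled wild-type, of the 30 members at least 2-fold apart (rows) under 8 processing settings (symbols), with dotted lines at 2-fold. The marked genes were detected on 1 array only. All 30 keep their sign under these settings, and 14 stay at least 2-fold apart under all 8, among them Prc1, Top2a, Cdc20, Kif23, Cdkn1c and Cdkn2b.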

How the data were processed

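The authors deposited linear intensity values, 1 per probe and array, as a file of signals that were not normalized (25697 probes). Their processed table holds the same intensity values times 1 factor per array, as found from the values. Bead summary and background steps are not given in the sources used here, and no detection p-values or control probes came with the files. Background was corrected with the nec function of limma 3.58.1 (R 4.3.3), a normexp fit whose parameters came from 1314 olfactory and vomeronasal receptor probes (offset 16). Values were then quantile normalized and put on the log2 scale. A gene was detected where the share of these probes at least as bright was under 0.01, and of several probes of a gene the one with the highest mean normalized value stands for it. Any true expression of such receptors in the tissue would raise this limit. Member symbols matched a current GRCm38.p6 symbol (109) or a synonym (7). The steps were tested on simulated data with folds placed only in genes well above background. That test does not cover folds of genes near background.

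With 1 array per group no test was made, and a difference was described by size, at least 2-fold. The members and all lists, phases and markers were chosen with earlier results of these data known. By rule, signals are given for members at least 2-fold apart, for the inhibitors and for the brightest member of each phase, and for up to 4 detected genes with the largest differences in each pathway list. Further members given with signals were chosen after their values were seen. Precision is limited by having so few arrays. Alternatives in background correction, normalization, probe choice, detection and fold threshold are given in the closing section.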

Additional observations from a re-analysis of the deposited data

How the results depend on the processing

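The direction of all 30 members at least 2-fold apart held under the 7 alternatives in background correction, offset, normalization, value table and probe choice, and 14 of them (12 higher, 2 lower) stayed at least 2-fold apart under all. The count of higher members, 27 in the main setting, was 14 without background correction and 12 at a 3-fold threshold. Under the other alternatives it lay within 1.5 times of that count. The count of lower members, 3 in the main setting, was 5 with cyclic loess, 5 with a detection share of 0.05, 5 with no detection filter and 9 at a 1.5-fold threshold. A lower fold threshold and a looser filter admit more genes by construction, and for the other settings the cause was not tested. The median log2 difference of detected members was 0.51 and ranged from 0.34 with no detection filter to 0.66 with equal medians, a scaling that put the median of all detected genes at 0.11. Averaging over all probes, undetected ones included, took Cdk1 to 0.65 and Mcm4 to 0.38 on the log2 scale. Without background correction Ccna2, E2f1, Kif18a and Cenpk were among 14 members no longer 2-fold apart. No paired analysis was possible because each group has 1 array. Members with signals near 227 on the array labelled null or 200.4 on the array labelled wild-type have folds set largely by the background correction.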

Other observations

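Probes of the same gene did not always give the same size. Of 42 members with several probes, 19 had at least 2 detected, and in 16 of these all detected probes lay on 1 side of 0. The exceptions were Ccnd3, E2f2 and Cdk10. The largest spread, 1.62 on the log2 scale, was that of Ccnd3, and the median spread was 0.65. Some of these probes were detected on 1 array only, both dim ones of Ccnd3 among them, and their values are fitted ones. The 3 detected probes of Mcm6, above background on both arrays, ranged from 0.28 to 0.93, with the brightest lowest.

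Of the genes that only their prefix placed in the set, Cdk2ap2, which binds Cdk2, read 3136 on the array labelled null and 995 on the array labelled wild-type (2.79-fold higher) and stayed at least 2-fold higher under all 8 settings. Aurkaip1, a mitochondrial ribosome protein that also binds Aurora kinase A, read 4227 and 4848 (1.38-fold lower). Cdk5rap3 read 6260.1 and 4122 (1.31-fold higher), and Cdk5rap2, a centrosome protein, 313 and 297 (1.21-fold lower).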
